A study of Mus musculus with 18 samples.

Results

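The antibody genes measured here were 10 of the 48440 genes in the count table: 8 heavy-chain constant region genes (Ighm, Ighd, Ighg3, Ighg1, Ighg2b, Ighg2c, Ighe and Igha), the kappa light-chain constant region Igkc, and Jchain. They were chosen by symbol, with no use of measured values, and 3 lambda light-chain genes (Iglc1, Iglc2 and Iglc3) were set beside Igkc. RNA-seq was run on immune cells (CD45+) sorted from livers in which Ras and Myc oncogenes, given by hydrodynamic tail vein injection, had raised tumours. The sort on CD3 and CD8 left a CD3-CD8- fraction and 2 T cell fractions, CD3+CD8+ and CD3+CD8-, and treated and untreated mice make these 6 groups of 3 libraries.

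All 18 libraries came from wild-type C57BL/6J mice, 7 weeks old at purchase, and all the mice carried the oncogene-driven tumours, untreated ones included. The treatment was poly(I:C), which mimics viral double-stranded RNA, at 4 mg/kg, combined with anti-PD-L1 antibody (200 µg), in 6 doses on alternate days. The general dosing notes also list an antibody to VEGF-A, which the labels of these libraries do not name. Replicates carry the numbers of the library names: 2, 11 and 19 for treated mice, 1, 5 and 18 for untreated mice, with 6 in place of 1 in the untreated CD3+CD8- group. The letters before numbers 6 and 19 in the library names (CV and PL) differ from those of the other untreated (C) and treated (P) libraries, although the labels give them the same treatment, and the title of treated CD3+CD8- replicate 11 repeats a digit of that number. Nothing in the labels says that a number marks an animal, so p-values measure the spread between these samples, which may be technical.

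A B cell assembles its antibody from a heavy and a light chain, each made of a variable part and a constant region. Naive B cells splice the same rearranged heavy-chain transcript to Ighm, which gives IgM, or to Ighd, which gives IgD; class switch recombination later joins the variable part to an IgG, IgE or IgA constant region further down the locus. Plasma cells secrete antibody in bulk, and the J chain links their IgM or IgA units into polymers.

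The 8 heavy-chain genes lie on the minus strand of chromosome 12 in the order of switching, with coordinates as deposited, which fit build GRCm38. Ighm lies at chr12:113418558-113422730, Ighd at chr12:113406604-113416324, Ighg3 at chr12:113359575-113361232 and Ighg1 at chr12:113325240-113330523. Further down are Ighg2b at chr12:113302965-113307933, Ighg2c at chr12:113285325-113288932, Ighe at chr12:113271174-113273248 and Igha at chr12:113254830-113260236. Igkc lies on the plus strand at chr6:70726435-70726966 and Jchain on the minus strand at chr5:88519809-88527891.

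The sequences below show where the classes differ in a way that bears on telling them apart and on the J chain. The 4 IgG subclasses resemble each other along most of their length, and 5.49% of the 50-base words of Ighg2c transcripts also occur in Ighg2b, so reads there could have been assigned to either gene. Their hinge exons, which join the antigen-binding arms to the stem, are distinct in sequence and length. Capitals mark in-frame cysteine codons, the residues of a hinge that bridge the heavy chains. The exons are on the minus strand of GRCm38, from GENCODE vM21 transcripts, 5′ to 3′:
Ighg1 hinge, chr12:113329844-113329882: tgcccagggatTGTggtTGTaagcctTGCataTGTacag
Ighg2b hinge, chr12:113307261-113307326: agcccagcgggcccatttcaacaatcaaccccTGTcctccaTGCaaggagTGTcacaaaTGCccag
Ighg2c hinge, chr12:113288263-113288325: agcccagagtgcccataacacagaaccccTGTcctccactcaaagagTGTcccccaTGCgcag
Ighg3 hinge, chr12:113360529-113360576: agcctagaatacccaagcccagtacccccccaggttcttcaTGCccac
The Ighg1 hinge has 39 bases and 4 cysteine codons, the Ighg2b hinge 66 bases and 4, the Ighg2c hinge 63 bases and 3, and the Ighg3 hinge 48 bases and 1. Secreted IgM and IgA end in a tailpiece whose cysteine bonds to the J chain. The coding ends of the secreted forms, with that cysteine codon in capitals, were identical at 40 of 59 positions:
Ighm secreted tailpiece, chr12:113420870-113420928: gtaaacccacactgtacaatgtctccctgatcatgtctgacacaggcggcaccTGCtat
Igha secreted tailpiece, chr12:113258771-113258829: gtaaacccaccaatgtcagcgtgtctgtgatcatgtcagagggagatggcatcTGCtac

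Library totals ran from 1829155 to 28233682 counts, and the heavy-chain genes together held between 330 and 223685 counts in a library. In untreated CD3+CD8+ replicates 1 and 18 and in treated CD3+CD8- replicate 2, ribosomal loci held 87.0%, 79.7% and 84.0% of all counts. Untreated CD3+CD8- replicate 6 had 628 CPM (counts scaled to library size, with TMM) of Cd8a, against 4.33 and 6.80 CPM in replicates 5 and 18 of that group, which goes against its CD8- label. The CD3-CD8- libraries also held T cell transcripts: Cd8a stood at 1049, 553 and 882 CPM in treated replicates 2, 11 and 19, and at 192, 294.5 and 59.9 CPM in untreated replicates 1, 5 and 18.

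Antibody constant region transcripts were higher in CD3-CD8- cells, the fraction in which B cells remain after the sort, than in CD3+CD8+ cells. In treated mice 5 of 9 tested genes were higher in CD3-CD8- than in CD3+CD8+ cells, where 3.99% of all 13181 genes tested were higher (4.68% called in either direction). The call is an adjusted p below 0.05 in edgeR's quasi-likelihood test with Benjamini-Hochberg adjustment over all genes tested, and all edgeR values below are of that kind. Ighe, the IgE constant region, passed the low-count filter in no comparison.

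**Figure D1:**
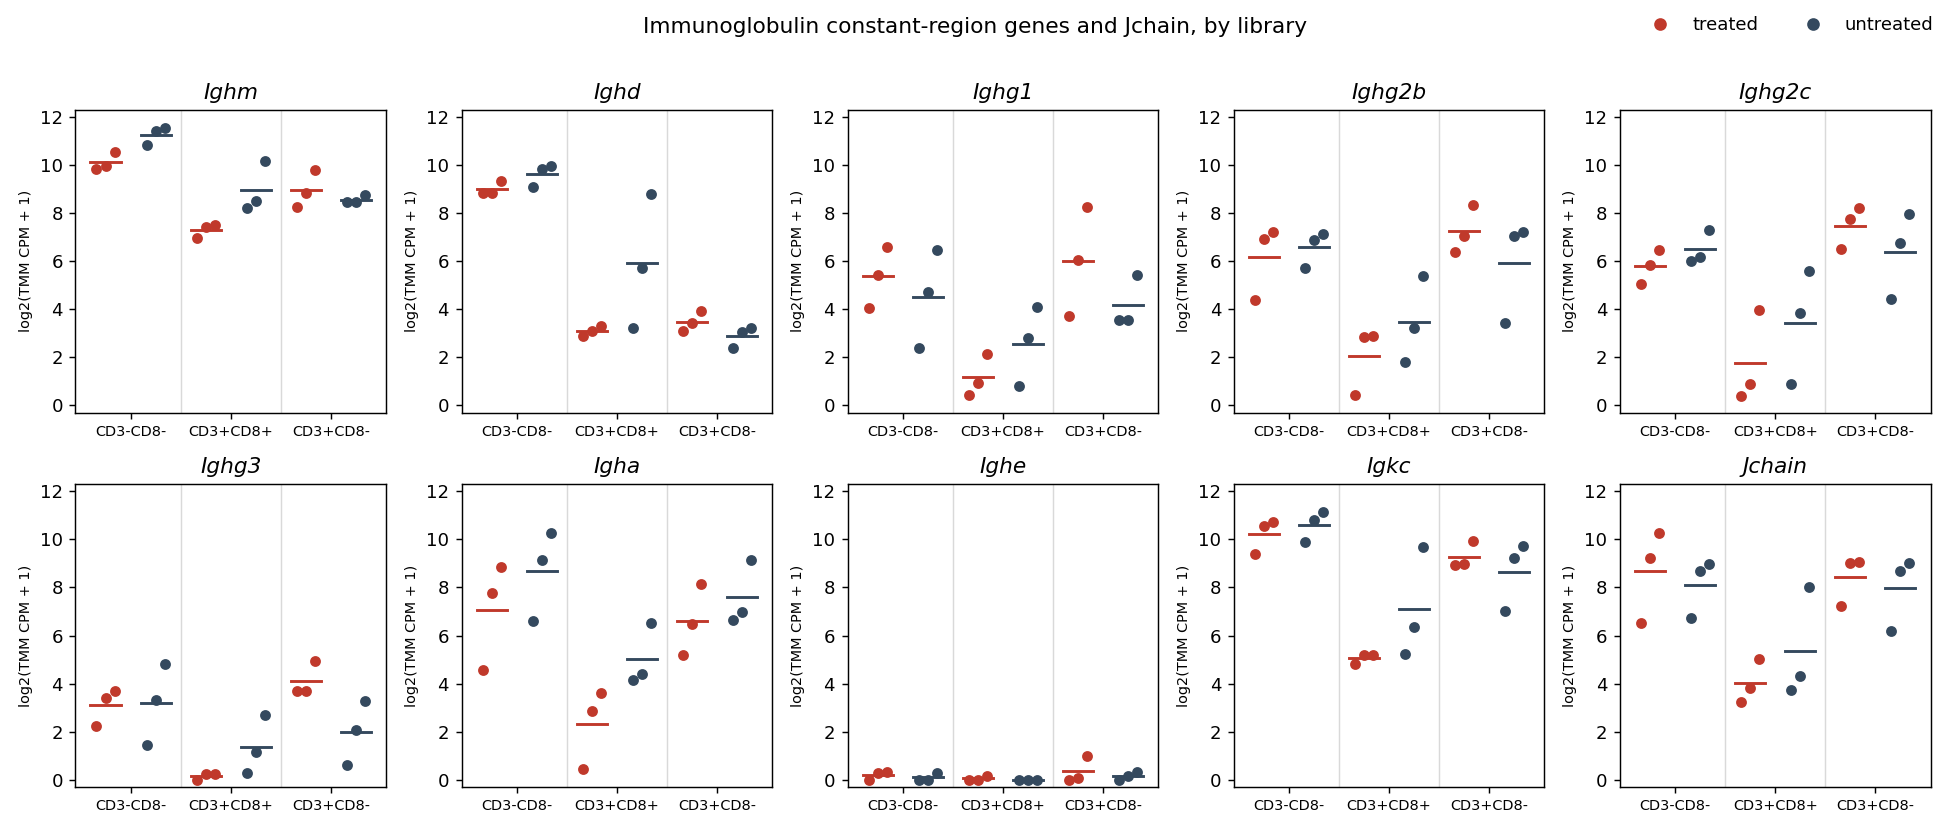
TMM-scaled CPM of each gene in every library, on a log2(CPM + 1) axis, with treated libraries in red left of untreated libraries in dark blue within each sorted fraction; bars are means on that axis. Ighd separates CD3-CD8- cells (454 to 989.5 CPM) from CD3+CD8- cells (4.22 to 14.2 CPM), while the Jchain values of those fractions overlap.

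Ighd, the class that marks naive B cells, had 454, 458 and 646 CPM in treated CD3-CD8- replicates 2, 11 and 19, against 8.92, 6.41 and 7.67 CPM in treated CD3+CD8+ and 14.2, 7.64 and 9.67 CPM in treated CD3+CD8- libraries of the same numbers. Every CD3-CD8- library stood far above both other fractions. The log2 fold change was 6.01 (SE 1.03, edgeR adjusted p = 0.00455) over CD3+CD8+ cells and 5.48 (SE 1.01, edgeR adjusted p = 0.0175) over CD3+CD8- cells.

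Ighd in untreated mice had 544, 913 and 989.5 CPM in CD3-CD8- replicates 1, 5 and 18, against 4.22, 8.34 and 7.33 CPM in CD3+CD8- replicates 5, 6 and 18, with a log2 fold change of 6.92 (SE 1.08, edgeR adjusted p = 0.00408), and of 7.14 without CD3+CD8- replicate 6 (edgeR adjusted p = 0.0167). In untreated CD3+CD8+ replicates 1, 5 and 18 it had 51.5, 8.40 and 444 CPM. Replicate 18 of that group nearly reached the CD3-CD8- range, and the fold change over untreated CD3+CD8+ cells, 2.25 (SE 0.87), was not called (edgeR adjusted p = 0.141).

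Ighm, the IgM constant region, was higher in CD3-CD8- cells in 3 of these 4 comparisons, but it was not low in the T cell fractions. It stood at 999.7, 927 and 1499 CPM in treated CD3-CD8- replicates 2, 11 and 19, against 180, 125 and 172 CPM in CD3+CD8+ and 463.5, 302 and 897 CPM in CD3+CD8- libraries of treated mice. The CD3-CD8- libraries were above all others, by little in the case of CD3+CD8- replicate 19. Over CD3+CD8+ cells it was higher by 2.78 on the log2 scale (SE 0.49, edgeR adjusted p = 0.00454), and the fold change was 0.93 (SE 0.46, edgeR adjusted p = 0.408) over CD3+CD8- cells, which was not called.

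In untreated mice Ighm had 1827, 2978 and 2758 CPM in CD3-CD8- replicates 1, 5 and 18, against 295, 363 and 1166 CPM in CD3+CD8+ replicates 1, 5 and 18. The untreated CD3+CD8- replicates 5, 6 and 18 had 436, 351 and 352 CPM. The CD3-CD8- libraries were again above both. In untreated mice 6 of 9 tested antibody genes were higher without overlap over CD3+CD8+ cells, where 16.8% of genes were, and 3 (Ighm, Ighd and Igkc) over CD3+CD8- cells, where 12.9% were. Over CD3+CD8- cells the log2 fold change of Ighm was 2.66 (SE 0.49, edgeR adjusted p = 0.00803), where 1.46% of genes were higher (3.03% called either way). Without CD3+CD8- replicate 6 it was 2.61 (edgeR adjusted p = 0.0257). Over CD3+CD8+ cells it was 1.99 (SE 0.48, edgeR adjusted p = 0.0298), where 2.28% of genes were higher (4.32% called either way). That last call ended in a fit of those 6 libraries alone (edgeR adjusted p = 0.111), and with untreated CD3+CD8+ replicate 1 or 5 or CD3-CD8- replicate 5 or 18 left out (edgeR adjusted p from 0.0567 to 0.131). With library totals in place of TMM, Ighm was no longer called over treated CD3+CD8+ cells (2.62, edgeR adjusted p = 0.164) or untreated CD3+CD8- cells (2.59, edgeR adjusted p = 0.289). With every library rich in ribosomal counts removed, the untreated CD3+CD8+ group held 1 library, replicate 5, which the fit assumes to vary like the other groups. Against that library the log2 fold change was 2.80 for Ighm (edgeR adjusted p = 0.0382) and 6.61 for Ighd (edgeR adjusted p = 6.03e-05).

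Igkc, the constant region of kappa light chains, had 670.2, 1705 and 1492 CPM in treated CD3-CD8- replicates 2, 11 and 19, against 35.3, 35.3 and 27.2 CPM in treated CD3+CD8+ libraries. Treated CD3+CD8- replicates 2, 11 and 19 had 488, 499 and 991 CPM. The CD3-CD8- and CD3+CD8+ libraries lay far apart, while those of CD3-CD8- and CD3+CD8- cells overlapped. Its log2 fold change was 5.26 (SE 1.03, edgeR adjusted p = 0.00850) over CD3+CD8+ cells and 0.87 (SE 0.87, edgeR adjusted p = 0.784) over CD3+CD8- cells.

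Jchain, which joins IgM and IgA into polymers, and Ighg3 completed the 5 calls in treated mice. Jchain had 91.3, 1223 and 602 CPM in treated CD3-CD8- replicates 2, 11 and 19, against 8.39, 31.4 and 13.2 CPM in treated CD3+CD8+ libraries, with a log2 fold change of 5.14 (SE 1.32, edgeR adjusted p = 0.0376). Ighg3 had 3.74, 12.0 and 9.59 CPM against 0.178, 0 and 0.181 CPM, with a log2 fold change of 5.68 (SE 1.33, edgeR adjusted p = 0.0207). The Ighg3 value rests on 1, 0 and 5 counts in the CD3+CD8+ libraries. The calls of Igkc, Ighg3 and Jchain ended when any 1 treated CD3+CD8+ library was left out (edgeR adjusted p from 0.0514 to 0.187). Those of Ighg3 and Jchain also ended without treated CD3-CD8- replicate 11 (0.0577 and 0.133), and that of Jchain without replicate 19 (0.0702). All 9 tested genes were higher with no overlap in treated CD3-CD8- than in treated CD3+CD8+ cells, as were 13.1% of all genes.

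Against CD3+CD8- cells, which hold helper T cells, fewer antibody genes passed the test. The CD3+CD8- libraries also held 11420 to 33150 summed CPM of 10 neutrophil markers in treated and 3140 to 14990 in untreated mice. The summed CPM of 12 T cell markers there ran from 2479 to 5030 in treated and from 2221 to 4651 in untreated mice. The part of neutrophils in the antibody values of this fraction was not tested. In treated mice 1 of 9 tested genes, Ighd, was called, where 0.645% of genes were higher (1.23% called either way). The call of Ighd ended when any treated CD3+CD8- library, or treated CD3-CD8- replicate 19, was left out (edgeR adjusted p from 0.0610 to 0.0760). Ighg1, Ighg2b, Ighg2c and Ighg3, the IgG subclasses, had negative log2 fold changes between -1.89 and -1.01, none of them called (edgeR adjusted p from 0.585 to 0.800), and that of Ighg1 was 0.17 without treated CD3+CD8- replicate 19. Ighg2c had 31.9, 88.5 and 56.0 CPM in treated CD3-CD8- replicates 2, 11 and 19, against 212.5, 89.3 and 295.5 CPM in treated CD3+CD8- libraries. Its groups did not overlap, as 8.04% of genes were lower and 12.4% higher without overlap here, but the replicates numbered 11 differed by under 1 CPM.

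The summed CPM of 20 B cell identity genes ran from 2280 to 3075 in treated CD3-CD8-, from 176 to 214 in treated CD3+CD8+ and from 352 to 457 in treated CD3+CD8- libraries. The summed CPM of 20 plasma cell genes ran from 941 to 977 in treated CD3-CD8- libraries. It ran from 647 to 775 in treated CD3+CD8+ and from 433 to 700 in treated CD3+CD8- libraries, ranges that overlapped. The part of B cells, plasma cells or free RNA in the antibody transcripts of the T cell fractions was not tested.

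In CD3-CD8- cells, treated mice had lower Ighm than untreated mice, and no other antibody gene passed the test. Of 9 tested genes 1 was called, where 25.8% of 13781 genes were called and 15.4% were lower. The log2 fold change of Ighm was -1.24 (SE 0.29, edgeR adjusted p = 0.0190), from 1142 ± 311 CPM in treated and 2521 ± 611 CPM in untreated libraries (SD, n = 3 each). As listed above, all 3 treated libraries, the highest at 1499 CPM, stood below all 3 untreated ones, the lowest at 1827 CPM. No overlap was also seen in 43.3% of all genes. In bulk samples fewer cells of a type and less RNA per cell cannot be told apart.

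The Ighm call ended with a correction for transcript GC content (log2 fold change -0.97, edgeR adjusted p = 0.0779), in a fit of all 18 libraries (-1.20, edgeR adjusted p = 0.172) and on the authors' FPKM values (-1.27, limma adjusted p = 0.0677). It also ended without untreated replicate 5 (-1.11, edgeR adjusted p = 0.0896), treated replicate 2 (-1.16, edgeR adjusted p = 0.0802) or treated replicate 11 (-1.11, edgeR adjusted p = 0.0523).

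**Figure D2:**
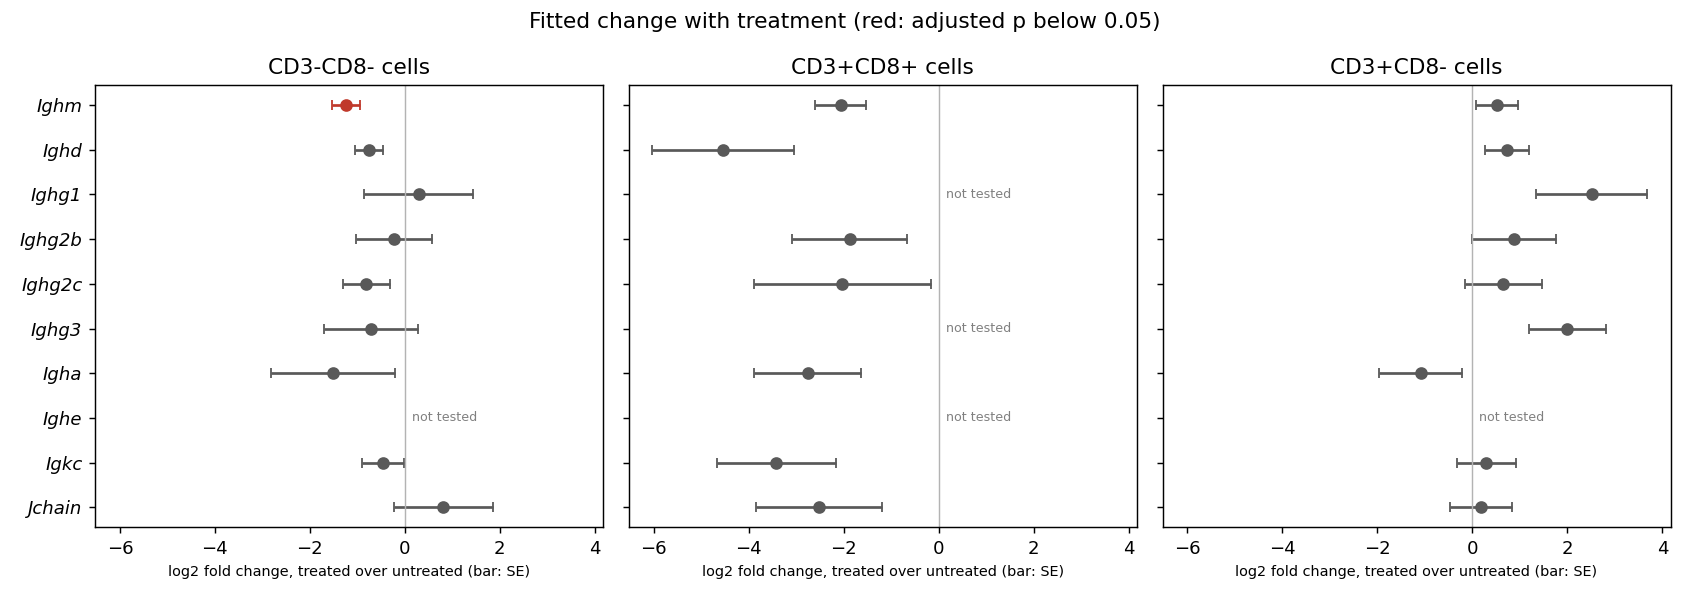
Log2 fold change (treated over untreated) of each tested gene in the 3 sorted fractions, with standard errors as bars; red marks an edgeR adjusted p below 0.05. Ighm in CD3-CD8- cells, at -1.24, is the 1 red point.

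Ighd, spliced from the same primary transcripts as Ighm, averaged 519 ± 110 CPM in treated and 816 ± 238 CPM in untreated CD3-CD8- libraries (SD, n = 3 each). Its ranges overlapped, since untreated replicate 1 stood at 544 CPM, below treated replicate 19 at 646 CPM. The log2 fold change was -0.75 (SE 0.29, edgeR adjusted p = 0.0862). DESeq2 called it (-0.70, adjusted p = 0.0314), as did edgeR without untreated replicate 1 (-1.0, adjusted p = 0.0276).

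Igkc had 670.2, 1705 and 1492 CPM in treated CD3-CD8- replicates 2, 11 and 19, against 962.5, 2238 and 1781 CPM in untreated replicates 1, 5 and 18. The ranges overlapped and the log2 fold change was -0.46 (SE 0.44, edgeR adjusted p = 0.465). The lambda genes were likewise not called: their list of 6 tested members, with the surrogate light chains of B cell precursors, had 1 gene lower, Vpreb3 (-1.74, edgeR adjusted p = 0.0134), which had 5.67 ± 2.5 CPM in treated and 18.4 ± 4.84 CPM in untreated libraries (SD, n = 3 each).

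None of the switched classes was called in CD3-CD8- cells, and for each the groups overlapped. Igha, the IgA constant region, had 22.9, 464 and 218 CPM in treated CD3-CD8- replicates 2, 11 and 19, against 96.4, 1214 and 564 CPM in untreated replicates 1, 5 and 18. The libraries of each group lay far apart, with treated replicate 2 and untreated replicate 1 lowest, and the groups overlapped. The log2 fold change was -1.51 (SE 1.31, edgeR adjusted p = 0.441), and it ran from -2.49 without treated replicate 11 to -0.60 without untreated replicate 5.

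Ighg1 had 15.8, 42.5 and 95.7 CPM in treated CD3-CD8- libraries, against 4.27, 87.7 and 25.3 CPM in untreated ones, and a log2 fold change of 0.29 (SE 1.15). Ighg2b had 19.8, 147 and 120.2 CPM in treated and 52.2, 139 and 118 CPM in untreated libraries, with -0.23 (SE 0.80). For both genes the ranges overlapped, and treated replicate 2 and untreated replicate 1 were the lowest of their groups. With 1 library left out the Ighg1 value ran from -0.52 to 1.67 and the Ighg2b value from -0.68 to 0.28, so neither kept its sign.

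Ighg2c, the IgG2a-type subclass of C57BL/6 mice, had 31.9, 88.5 and 56.0 CPM in treated and 63.5, 157 and 71.3 CPM in untreated CD3-CD8- libraries, with a log2 fold change of -0.81 (SE 0.49). Ighg3 stood between 3.74 and 12.0 CPM in treated and between 1.74 and 26.9 CPM in untreated libraries, with -0.71 (SE 0.99), which was 0.53 without untreated replicate 5. None of the 4 IgG genes was called in edgeR's test, and Ighg2c was called when no low-count filter was applied (-0.74, edgeR adjusted p = 0.0188).

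Jchain had 91.3, 1223 and 602 CPM in treated CD3-CD8- replicates 2, 11 and 19, against 104, 499 and 410 CPM in untreated replicates 1, 5 and 18. The ranges overlapped, and the log2 fold change of 0.81 (SE 1.04, edgeR adjusted p = 0.608) was -0.09 without treated replicate 11. Treated replicate 11 also held 20480 summed CPM of 10 neutrophil markers, against 626 and 1653 in treated replicates 2 and 19 and 188 to 878 in the untreated libraries. Ighe had 0, 1 and 7 counts in treated replicates 2, 11 and 19 and 0, 9 and 0 counts in untreated replicates 1, 5 and 18, and a 0 there allows up to 0.00838% of a library's heavy-chain counts.

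The median log2 fold change of the 9 tested antibody genes was -0.71 in CD3-CD8- cells, beside -0.06 over all genes, and 2 of the 9, Ighg1 and Jchain, were above 0. In the same libraries 14 of 20 B cell identity genes were lower and 0 higher, the median being -1.0, where 15.4% of all genes were lower. Cd79a, the signalling chain of the B cell receptor, had 122 ± 31.2 CPM in treated and 327 ± 69.7 CPM in untreated libraries (SD, n = 3 each; log2 fold change -1.52, edgeR adjusted p = 0.00802). Ms4a1, which encodes CD20, was not called (-0.18, edgeR adjusted p = 0.472). In place of 14, the number lower was 7 with the GC correction and without treated replicate 2, 2 without untreated replicate 5, 3 on FPKM values and 0 in the fit of 18 libraries.

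Over the same libraries 8 of 12 T cell markers were higher, with a median of 1.30. Of all genes 25.8% were called either way. The summed CPM of these markers ran from 4453 to 7133 in treated and from 931 to 2441 in untreated CD3-CD8- libraries. The summed CPM of the 20 B cell genes ran from 2280 to 3075 in treated and from 3665 to 4701 in untreated libraries, again with no overlap. Without untreated replicate 5 no T cell marker was called. The part of these shifts in the value of Ighm was not tested.

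**Figure D3:**
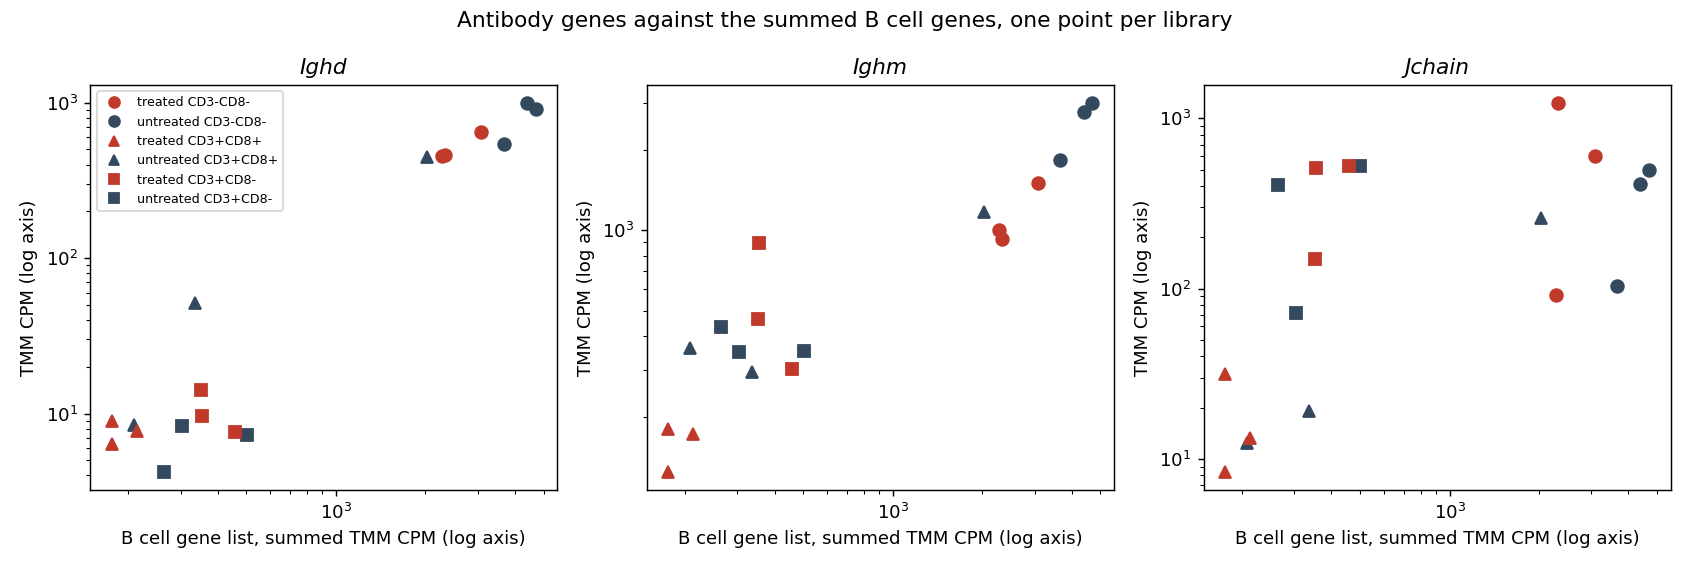
TMM CPM of Ighd, Ighm and Jchain in each library (vertical, log axis) against the summed TMM CPM of 20 B cell identity genes (horizontal, log axis); red is treated, dark blue untreated, and the marker shape gives the fraction. The treated CD3-CD8- libraries lie at 2280 to 3075 on the horizontal axis and the untreated ones at 3665 to 4701, while Jchain in several CD3+CD8- libraries reaches the CD3-CD8- range at a B cell sum of at most 501.

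Set against the B cell gene Ms4a1, in a ratio chosen after the values were seen, Ighm had 199, 203 and 233 counts per 100 Ms4a1 counts in treated CD3-CD8- replicates 2, 11 and 19, against 293, 521 and 523 in untreated replicates 1, 5 and 18. Every treated library was below every untreated one. Ms4a1 was not called between the groups, while 14 of the 20 B cell genes were lower, so the size of this gap depends on the gene set below Ighm. Ighd had 90.4, 100.2 and 100.2 counts per 100 Ms4a1 counts in treated and 87.2, 159.9 and 188 in untreated libraries, ranges that overlapped.

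**Figure D4:**
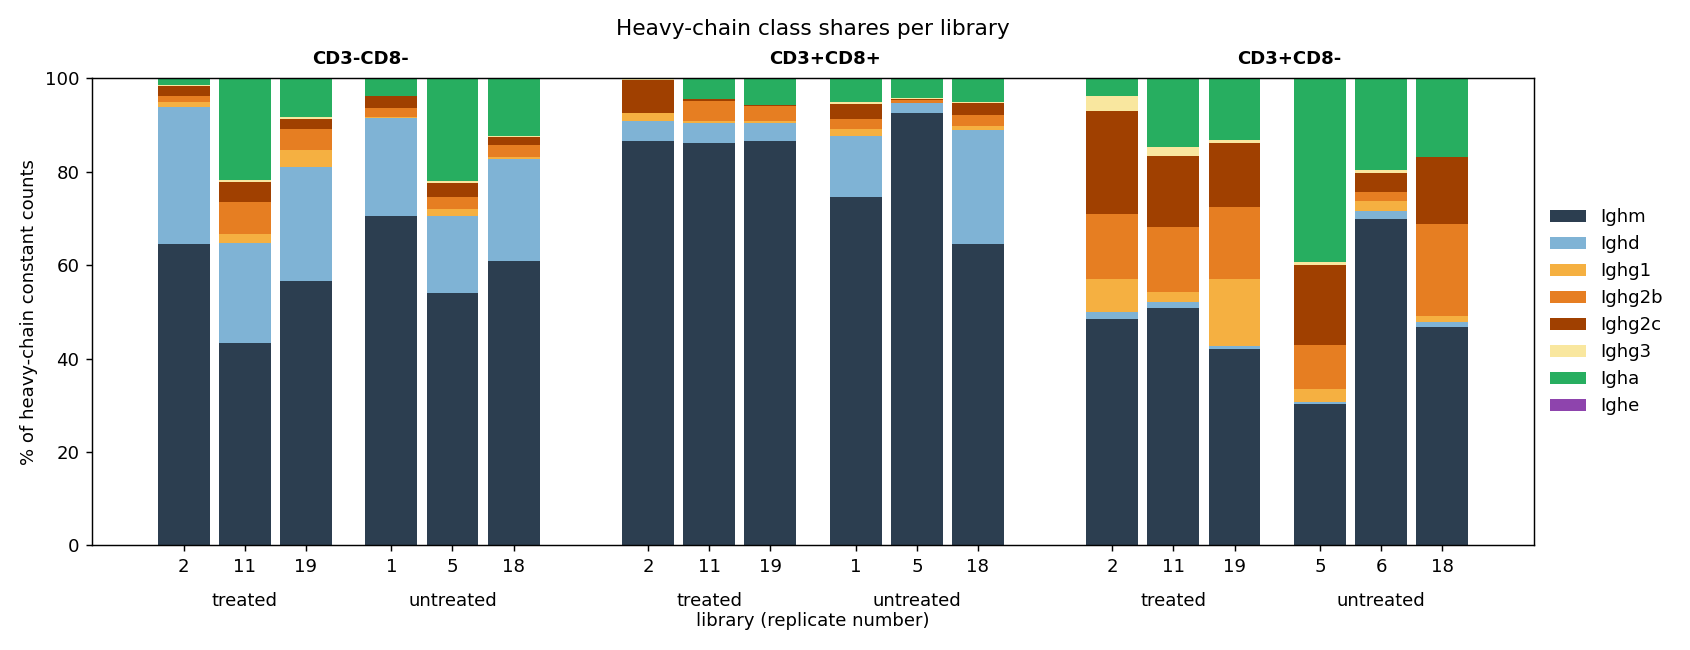
Share of each heavy-chain class in all heavy-chain constant counts (percent, stacked to 100), 1 bar per library, treated libraries left of untreated ones in each fraction. Ighm and Ighd fill most of the CD3-CD8- bars, and Ighm alone most of the treated CD3+CD8+ bars. Switched classes fill 47.8% to 57.4% of the treated CD3+CD8- bars and 28.5% to 69.3% of the untreated ones.

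Shares of the heavy-chain counts do not depend on library scaling. In CD3-CD8- cells Ighm made up 64.6%, 43.3% and 56.7% of them in treated replicates 2, 11 and 19, against 70.5%, 54.0% and 60.8% in untreated replicates 1, 5 and 18. Ighd made up 29.3%, 21.4% and 24.4% in treated and 21.0%, 16.6% and 21.8% in untreated libraries. Both pairs of ranges overlapped, and neither difference of means passed an exact permutation test (two-sided p = 0.5 and 0.2).

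The ratio of Ighd to Ighm counts separated the treated from the untreated CD3-CD8- libraries. CD3-CD8- cells of treated mice had 45.4, 49.4 and 43.1 Ighd counts per 100 Ighm counts in replicates 2, 11 and 19, against 29.8, 30.7 and 35.9 in untreated replicates 1, 5 and 18. All 3 treated libraries were above all 3 untreated ones, with a mean difference of 13.9 that stayed between 12.1 and 15.7 when any 1 library was left out. The exact permutation p was 0.1 (two-sided), the smallest that 3 against 3 can give, and 0.75 after Benjamini-Hochberg adjustment over 15 ratio tests. In CD3+CD8+ cells the ratio was 4.96, 5.14 and 4.46 in treated replicates 2, 11 and 19, against 17.5, 2.32 and 38.1 in untreated replicates 1, 5 and 18, with a mean difference of -14.4 and ranges that overlapped (exact permutation p = 0.4, two-sided). In CD3+CD8- cells it stood between 1.08 and 3.07 in treated and between 0.968 and 2.38 in untreated libraries.

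Switched classes together (4 IgG genes, Igha and Ighe) made up 6.08%, 35.2% and 18.9% of heavy-chain counts in treated CD3-CD8- replicates 2, 11 and 19, against 8.42%, 29.4% and 17.4% in untreated replicates 1, 5 and 18. The groups overlapped almost fully, with means of 20.1% and 18.4% (exact permutation p = 0.9, two-sided). Within them Igha held 1.48%, 21.7% and 8.25% of heavy-chain counts in treated and 3.72%, 22.0% and 12.4% in untreated libraries. The lowest Igha share in each group belonged to treated replicate 2 and untreated replicate 1.

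Kappa counts were high for the amount of heavy chain in treated CD3-CD8- cells. Igkc had 43.3, 79.7 and 56.4 counts per 100 heavy-chain counts in treated replicates 2, 11 and 19, against 37.2, 40.6 and 39.3 in untreated replicates 1, 5 and 18. The groups did not overlap and differed by 20.8 on average (exact permutation p = 0.1, two-sided, adjusted p = 0.75), and by 10.9 without treated replicate 11. Of 15 such ratio tests 2 had no overlap, and of 24 class shares 1. With random labels a lack of overlap has a probability of 0.1 in each test, and these counts do not stand out from that share.

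**Figure D5:**
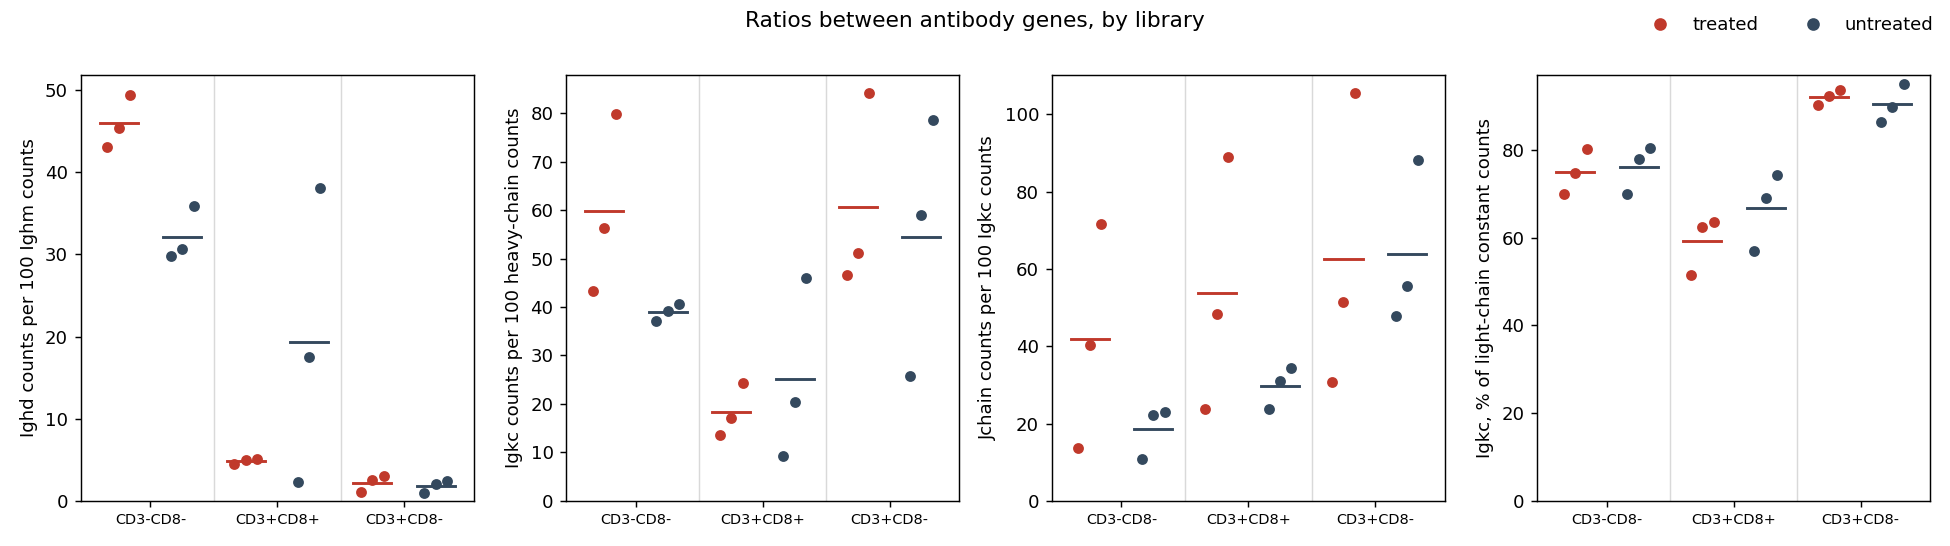
Ighd per 100 Ighm counts, Igkc per 100 heavy-chain counts, Jchain per 100 Igkc counts and Igkc as a percent of light-chain constant counts, 1 point per library, treated left of untreated in each fraction, with bars at the mean. In CD3-CD8- cells the first 2 panels separate treated (43.1 to 49.4 and 43.3 to 79.7) from untreated libraries (29.8 to 35.9 and 37.2 to 40.6).

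Light-chain usage gave no such gap: Igkc made up 70.0%, 80.2% and 74.7% of kappa and lambda constant counts in treated CD3-CD8- replicates 2, 11 and 19, against 70.1%, 80.6% and 78.1% in untreated replicates 1, 5 and 18. Jchain had 13.6, 71.7 and 40.4 counts per 100 Igkc counts in treated and 10.8, 22.3 and 23.0 in untreated libraries. Treated replicate 2 lay within the untreated range for this ratio, and the other treated libraries above it (exact permutation p = 0.3, two-sided).

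In CD3+CD8+ cells, the cytotoxic T cell fraction, no antibody gene was called, nor any gene at all: edgeR called 0 of 10654 (0%), with 608 at an unadjusted p under 0.05, while DESeq2 called 99 and limma voom 204. Of 7 tested antibody genes edgeR put 4 (Ighm, Ighd, Igha and Igkc) at an unadjusted p under 0.05, and DESeq2 called Ighm alone (-2.05, adjusted p = 0.00674). Ighm had 180, 125 and 172 CPM in treated replicates 2, 11 and 19, against 295, 363 and 1166 CPM in untreated replicates 1, 5 and 18. All treated libraries were below all untreated ones, a gap seen in 10.4% of genes in either direction (3.03% lower), and the log2 fold change was -2.06 (SE 0.53, edgeR adjusted p = 0.520). It was -1.12 without untreated replicate 18, -1.21 without both untreated libraries rich in ribosomal counts and -0.36 with library totals. On the authors' FPKM values the direction turned (0.32, limma adjusted p = 0.845), with 123.6, 72.1 and 112.6 FPKM in treated replicates 2, 11 and 19, against 19.8, 241 and 105.0 FPKM in untreated replicates 1, 5 and 18, and these ranges overlapped. On TMM CPM Ighg3, Igha and Igkc were likewise lower without overlap. On FPKM values the ranges of each of these genes overlapped too. Igha had 0.427 to 12.0 FPKM in treated and 2.49 to 18.6 in untreated libraries, and Igkc 81.6 to 109 and 25.4 to 329. Ighg3 had too few counts to be tested in this fraction.

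Ighd had 8.92, 6.41 and 7.67 CPM in treated CD3+CD8+ libraries, against 51.5, 8.40 and 444 CPM in untreated replicates 1, 5 and 18. Igkc had 35.3, 35.3 and 27.2 CPM in treated and 80.3, 36.3 and 834 CPM in untreated libraries. For both genes untreated replicate 18 was highest and untreated replicate 5 close to the treated ones. The log2 fold changes were -4.55 (SE 1.49) and -3.41 (SE 1.24), with edgeR adjusted p of 0.743 for Ighd and 0.778 for Igkc. Without untreated replicate 18 they were -1.93 for Ighd and -0.88 for Igkc, and without both untreated libraries rich in ribosomal counts -0.15 and -0.18. On FPKM values they were -0.91 for Ighd and -0.06 for Igkc. Without untreated replicate 5, which leaves those 2 libraries, Ighd was called (-5.13, edgeR adjusted p = 0.0175).

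The log2 fold change was negative for all 7 tested antibody genes in the CD3+CD8+ fraction, and its median was -2.52, beside -0.03 over all genes. Untreated replicates 1 and 18 are the libraries in which ribosomal loci held most counts, and replicate 18 also held 2030 summed CPM of the 20 B cell genes, against 208 in the lowest untreated and 176 to 214 in the treated libraries. Without both, 4 of 8 tested antibody genes were positive and the median was 0.16. Without replicate 18 alone it was -0.88, and with library totals in place of TMM -0.36, beside 1.17 over all genes.

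Ighm dominated the heavy-chain counts of treated CD3+CD8+ cells, at 86.6%, 86.1% and 86.6% in replicates 2, 11 and 19, against 74.5%, 92.5% and 64.5% in untreated replicates 1, 5 and 18. The treated libraries lay within the untreated range and close to each other. Kappa was scarce beside it, with 17.01, 24.4 and 13.7 Igkc counts per 100 heavy-chain counts in treated and 20.3, 9.25 and 46.1 in untreated libraries. Untreated replicate 5, with few ribosomal counts, had 3498 Ighm but 350 Igkc counts. In treated replicate 2 Igha held 0.172% of heavy-chain counts, 2 of 1164 (Wilson 95% interval 0.0471% to 0.624%), against 4.31% and 5.61% in treated replicates 11 and 19.

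The lambda genes also stood in another proportion there. Iglc3 made up 60.5%, 84.3% and 75.2% of Iglc1, Iglc2 and Iglc3 counts in treated CD3+CD8+ replicates 2, 11 and 19, and 56.7%, 83.7% and 38.8% in untreated replicates 1, 5 and 18. In CD3-CD8- cells it made up 28.1% to 29.4% in treated and 28.2% to 30.5% in untreated libraries. This share was chosen after the values were seen and was not tested. Iglc3 shares 10.7% of its 50-base words with Iglc2, so the split between them is uncertain.

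In CD3+CD8- cells, again, edgeR called 0 of 11197 genes (0%), with 177 at an unadjusted p under 0.05, and DESeq2 called 2. Of 9 tested antibody genes 8 had a positive log2 fold change, with a median of 0.65 beside -0.02 over all genes, and 1 (Ighg3) an unadjusted p under 0.05; neither edgeR nor DESeq2 called any. With library totals in place of TMM 3 of 9 were positive, the median being -0.04 beside -0.53 over all genes. Without untreated replicate 6, the library with Cd8a against its label, 6 of 9 were positive and the median was 0.35; without treated replicate 19 it was 0.24, also with 6 positive. Without treated replicate 2, rich in ribosomal counts, 8 of 9 were positive and the median was 0.52.

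Ighg3 had 29.4, 11.8 and 11.9 CPM in treated CD3+CD8- replicates 2, 11 and 19, against 8.66, 3.18 and 0.523 CPM in untreated replicates 5, 6 and 18. On TMM CPM it was the 1 antibody gene without overlap in this fraction, where 3.74% of genes had none. On FPKM values the ranges overlapped (5.995 to 12.4 in treated and 0.421 to 11.9 in untreated libraries), as did its shares of heavy-chain counts (0.559% to 3.08% in treated and 0.0696% to 0.632% in untreated libraries). The log2 fold change was 2.0 (SE 0.81, edgeR adjusted p = 0.9998), between 1.27 and 3.44 with any 1 library left out and 0.83 with library totals, and a fit with no low-count filter called it (1.95, edgeR adjusted p = 0.0457). The untreated values rest on 76, 8 and 2 counts.

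Ighg1 had 66.0, 12.1 and 309 CPM in treated CD3+CD8- libraries, against 41.5, 10.7 and 10.7 CPM in untreated replicates 5, 6 and 18, with a log2 fold change of 2.51 (SE 1.17, edgeR adjusted p = 0.9998) that was 0.98 without treated replicate 19. Treated replicate 19 was the highest and the ranges overlapped. Igha ran the other way, with 35.3, 87.3 and 280.0 CPM in treated libraries and 565, 98.5 and 126 CPM in untreated ones, and a log2 fold change of -1.09 (SE 0.87) that was 0.23 without untreated replicate 5.

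As a share of heavy-chain counts Igha made up 3.69%, 14.7% and 13.2% in treated CD3+CD8- replicates 2, 11 and 19, against 39.4%, 19.6% and 16.8% in untreated replicates 5, 6 and 18. All treated libraries were below all untreated ones, with means of 10.5% and 25.3%. The exact permutation p was 0.1 (two-sided), the smallest this design allows, and 0.8 after Benjamini-Hochberg adjustment over 24 shares. The difference of -14.7 percentage points was -7.68 without untreated replicate 5, -17.6 without untreated replicate 6 and -11.3 without treated replicate 2.

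IgG classes together made up 46.2%, 33.1% and 44.2% of heavy-chain counts in treated CD3+CD8- replicates 2, 11 and 19, against 30.0%, 8.85% and 35.4% in untreated replicates 5, 6 and 18. The ranges overlapped. Ighd made up 1.49%, 1.29% and 0.454% in treated and 0.294%, 1.66% and 0.974% in untreated libraries. Kappa made up 90.4% to 93.8% of light-chain counts in treated and 86.5% to 94.99% in untreated libraries.

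Whether the response to treatment differed between fractions was tested as an interaction in the fit of 18 libraries. Against both CD3+CD8+ and CD3+CD8- cells edgeR called 0 of 13181 genes (0%) and no antibody gene, with 510 and 496 genes at an unadjusted p under 0.05. DESeq2 called 1 and 19 genes, none of them an antibody gene. Against CD3+CD8+ cells Ighd and Igkc were at an unadjusted p under 0.05 (Ighd 3.76, SE 1.22, edgeR adjusted p = 0.848). Against CD3+CD8- cells Ighm was (-1.73, SE 0.66, edgeR adjusted p = 0.980). Under other processing settings the Ighd value ran from -0.55 to 3.77 and the Igkc value from -0.23 to 2.91, so neither kept its sign. That of Ighm ran from -1.84 to -1.32. With any 1 library left out, Ighd ran from 1.09 to 4.38 and Igkc from 0.375 to 3.49.

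Levels of different genes can be set side by side per length, on the authors' deposited FPKM values. In treated CD3-CD8- libraries the order of mean FPKM was Igkc at 3566 ± 1159, Ighm at 682 ± 179, Jchain at 455 ± 382, Ighd at 286 ± 57.0, Igha at 219 ± 198, Ighg2b at 89.0 ± 60.3, Ighg2c at 56.4 ± 22.5, Ighg1 at 51.0 ± 39.9 and Ighg3 at 7.92 ± 3.43 (SD, n = 3). Of these neighbours only Igkc and Ighm, and Ighg1 and Ighg3, had ranges that did not overlap. In untreated CD3-CD8- libraries Igkc led with 5219 ± 2304 FPKM before Ighm at 1654 ± 477 and Igha at 700 ± 689 (SD, n = 3), and below Ighm all neighbours down to Ighg3 overlapped.

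The order differed in the T cell fractions, on the same FPKM values. Treated CD3+CD8+ libraries had Ighm at 102.8 ± 27.1 and Igkc at 93.6 ± 14.1 FPKM, both above Jchain at 13.8 ± 8.25 FPKM (SD, n = 3). Treated CD3+CD8- libraries had Igkc at 1557 ± 1327 and Ighm at 299 ± 288 FPKM, with Ighd lowest of the 9 at 3.87 ± 1.84 FPKM (SD, n = 3). In untreated CD3+CD8- libraries Igha averaged 322 ± 380 FPKM and Ighm 264 ± 105 FPKM (SD, n = 3), with overlapping ranges and Igha above Ighm in 1 of 3 libraries. Ighd there, at 3.37 ± 0.98 FPKM, also overlapped with Ighg3 at 5.30 ± 5.90 FPKM (SD, n = 3), which was above it in 1 of 3 libraries.

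The antibody genes formed sets with like patterns across the 6 CD3-CD8- libraries, given as Pearson r of log2 CPM without a test. Igha and Igkc had r = 0.99, Igkc and Ighg2b 0.96 and Ighm and Ighd 0.94, while Ighm and Jchain had 0.03. These points share 2 treatment groups and library depths that differ. The genes named next had the highest r of 8212 compared over the 6 libraries, or of 7919 over all 18. Values of r picked as the highest of so many run high by that selection. The genes most like Ighm over those libraries were Cd22, an inhibitory receptor of B cells, at r = 0.999, then Chst3 and Fcmr, the IgM receptor (both 0.998). Igha was most like Rtcb (0.981) and Txndc5, an endoplasmic reticulum oxidoreductase (0.951). Over all 18 libraries Ighm was most like Cd74 (0.971), H2-Eb1, H2-Ab1, H2-Aa and Ciita, genes of MHC class II presentation. Igha was most like Bmf (0.921), 5031439G07Rik, Tmem176b, Spi1 and Scarb1 over the same 18 libraries. There Jchain was most like Idh1 (0.939), Wfdc17, Msr1, Fcgr4 and Clec4a1.

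Jchain was most like Eif2s3y (r = 0.968) and Ddx3y (0.959) over the 6 CD3-CD8- libraries, both genes of the Y chromosome. Xist, expressed from the inactive X, had 610 CPM in treated replicate 2 and 335 CPM in untreated replicate 1, and under 1 CPM in the other CD3-CD8- libraries. These were the libraries with the lowest values of their groups for each tested antibody gene, except that another treated library had the lowest Ighm. The labels give no sex for the mice, each group holds 1 such library, and its part in these values was not tested.

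Lists of genes around antibody production were called in CD3-CD8- cells at shares to be read beside the 25.8% of all genes called and the 15.4% lower. In these libraries the T cell markers given above were higher in treated mice, and of 10 Kupffer cell and macrophage markers 0 were higher and 4 lower, with a median of -1.67 and summed CPM of 217 to 698 in treated and 567 to 1521 in untreated libraries. Their part in the list values was not tested. Of 20 plasma cell genes 1 was higher and 5 lower: Prdm1, the plasma cell regulator also found in T cells, had 47.7 ± 9.01 CPM in treated and 14.6 ± 4.76 CPM in untreated libraries (SD, n = 3 each; log2 fold change 1.65, edgeR adjusted p = 0.00684). Sdc1, a plasma cell surface marker, was lower (-1.86, edgeR adjusted p = 0.00877), as was Mzb1, a chaperone for antibody assembly (-1.0, edgeR adjusted p = 0.0298). Without untreated replicate 5, and likewise with the GC correction, 1 of the list was higher and 0 lower.

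Of 15 immunoglobulin receptor and transport genes 1 was higher and 4 lower: Fcer2a, the low-affinity IgE receptor, had 77.1 ± 17.6 CPM in treated and 213 ± 51.8 CPM in untreated libraries (SD, n = 3 each; log2 fold change -1.55, edgeR adjusted p = 0.00840). Fcgrt, which protects IgG from degradation, was lower as well (-1.58, edgeR adjusted p = 0.00891), as was Fcmr (-1.15, edgeR adjusted p = 0.0200). With the GC correction 2 of the list were lower, and without untreated replicate 5 it was 1.

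Class switching draws on cytokines, their receptors and DNA repair. Of 9 tested switch cytokines and helper ligands 3 were higher and 3 lower, beside 25.8% of all genes called: Il10 had 15.01 ± 6.89 CPM in treated and 1.31 ± 0.52 CPM in untreated libraries (SD, n = 3 each; log2 fold change 3.44, edgeR adjusted p = 0.00551). Treated CD3+CD8+ and CD3+CD8- libraries held 12.4 ± 2.0 and 21.2 ± 19.8 CPM of Il10 (SD, n = 3 each). Tnfsf13b, which encodes the B cell survival factor BAFF, was higher (1.66, edgeR adjusted p = 0.0103), and Tgfb1, a switch factor for IgA, was lower (-1.18, edgeR adjusted p = 0.00551).

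Of 22 switch receptors and transcription factors 0 were higher and 6 lower, a share near that of all genes called, among them Cd40, the receptor for T cell help (-1.46, edgeR adjusted p = 0.00551), and Il4ra (-1.40, edgeR adjusted p = 0.00551). Of 22 switch enzymes and end-joining genes 3 were higher, Xrcc4 and Rif1 among them (1.25 and 0.78, edgeR adjusted p = 0.00693 and 0.0154), and 3 lower, such as Ung, the uracil glycosylase (-1.32, edgeR adjusted p = 0.0166). Of 10 germinal centre genes 2 were higher and 3 lower, such as Bcl6 (-0.94, edgeR adjusted p = 0.0201). In the fit of 18 libraries no gene of these 4 lists was called. In the CD3+CD8+ and CD3+CD8- comparisons of treated with untreated mice no gene of any list was called.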

How the data were processed

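RNA was measured by RNA-seq in 18 sorted-cell libraries in 6 groups of 3, grouped by the labels. The authors deposited whole-number read counts per gene for 48440 genes and, in a second table, FPKM values (fragments scaled to gene length and library size) with a symbol and a position; 22 other library columns were not used. The submitters' processing notes name Cufflinks 2.2.1, DESeq2 3.20, HTSeq 0.13.5 and Trim Galore 0.6.7 without their roles. Which aligner, build and strand setting were used is not given in the sources used here. Of the genes, 47864 were found in GENCODE vM21 (GRCm38), 90.48% of them with the same start.

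From the counts, CPM were computed with TMM scaling over all 18 libraries. Treated and untreated libraries were compared within each fraction with edgeR 4.0.16 in R 4.3.3 (filterByExpr, TMM, robust quasi-likelihood F-test, two-sided, Benjamini-Hochberg over all genes tested, adjusted p below 0.05). Fractions and interactions were contrasts in a fit of all 18 libraries. Standard errors are the log2 fold change over the square root of F. Shares are raw counts over raw counts, with Wilson intervals that, like limits from 0 counts (3 counts), cover counting error only. Shares and ratios were compared by exact permutation (scipy 1.17.1). Alternatives used DESeq2 1.42.0 and limma 3.58.1, with limma run on log2(FPKM + 1) where the mean FPKM reached 1, and a loess correction for GC content, known for 99.21% of genes. The fits were tested on simulated counts.

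Of 16 pairs of same-numbered libraries, 15 deviated together with r above 0.1 (-0.05 to 0.69), against -0.66 to 0.59 for 38 pairs of unlike number. The genes studied, the 16 gene lists and the tests were chosen with earlier results of these data known. Genes named are all 10 antibody genes, and from each list up to 4 called in CD3-CD8- cells with the smallest p, otherwise 2, of which the text prints some.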

Additional observations from a re-analysis of the deposited data

Results flagged for a closer look

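On TMM CPM Ighg3 was the 1 antibody gene whose groups separated in opposite directions in 2 fractions. Every treated CD3+CD8- library (11.8 to 29.4 CPM) stood above every untreated one (0.523 to 8.66 CPM), with a log2 fold change of 2.0. Every treated CD3+CD8+ library (0 to 0.181 CPM) stood below every untreated one (0.207 to 5.39 CPM). On the authors' FPKM values, and as a share of heavy-chain counts, the Ighg3 ranges of treated and untreated libraries overlapped in both fractions. The difference between these fractions was not tested, and the CD3+CD8+ values rest on 0 to 5 counts a library, too few to pass the low-count filter there.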

How the results depend on the processing

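No called value changed its direction under any alternative; 67 of 1268 values under alternatives had another sign than the value reported, all uncalled. For treated against untreated CD3-CD8- cells, 1 antibody gene was called in edgeR's main setting, 2 with no low-count filter, 2 with DESeq2, and 0 with the GC correction, with limma on FPKM and in the fit of 18 libraries (0 to 2 with a library left out). For CD3+CD8+ cells it was 0, but 1 with no filter and 1 with DESeq2 (0 to 1), and for CD3+CD8- cells 0, but 1 with no filter. For CD3-CD8- against CD3+CD8+ cells of treated mice it was 5, but 8 with library totals, 9 with no filter and 8 with DESeq2 (2 to 7), and in untreated mice 1, but 9 with library totals, 9 with no filter, 4 with DESeq2, 3 without the libraries rich in ribosomal counts and 0 with only the libraries compared (0 to 4). Against CD3+CD8- cells it was 1 in treated mice, but 3 with no filter (0 to 1), and 2 in untreated mice, but 1 with library totals and 5 with no filter. The interactions, at 0, had 3 and 2 with no filter. The number of class shares without overlap, 1, ran from 1 to 4 with a library left out, and that of ratios, 2, from 2 to 5. No CD3-CD8- library was rich in ribosomal counts, so leaving such libraries out gave no value there. The same numbers mark samples across fractions without a stated animal. A fit with the replicate number as a block called 7, 1, 1 and 2 antibody genes in the 4 fraction comparisons, in the order treated against CD3+CD8+ and CD3+CD8- cells, then untreated, and 0 in both interactions; over all genes it called 1008, 625, 1486 and 1385 in place of 617, 162, 569 and 400. Treated and untreated libraries share no number. Over all genes the 3550 calls in CD3-CD8- cells ran from 62 in the fit of 18 libraries to 6347 with limma voom (445 to 3292 with a library left out); 1421 higher and 2129 lower became 386 and 1860 with library totals, and for untreated CD3-CD8- against CD3+CD8+ cells 300 and 269 became 1047 and 77. With library totals the median log2 fold change over all genes was -0.17, 1.17 and -0.53 in CD3-CD8-, CD3+CD8+ and CD3+CD8- cells, against -0.06, -0.03 and -0.02 with TMM. The causes were not tested. With 330 heavy-chain counts in the shallowest library, rare classes there are not detectable at this depth.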
